A study of Mus musculus with 28 samples.

Results

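Potassium channels and hyperpolarization-activated cyclic nucleotide-gated (HCN) channels were followed in hippocampal CA1 of the mouse through 75 genes. A gene was a member when its symbol began with Kcn, or with Hcn and a number, in any of the deposited comparison tables. The Kcnc genes, Kcng4 and Kcns3, the channel genes best known from fast-spiking cells, were left out by that rule, which removed 5 genes. The 75 members, of 14711 genes in the tables, comprised 28 voltage-gated (Kv) subunits, 12 inward rectifiers (Kir), 12 two-pore-domain (K2P) subunits, 5 subunits of the calcium- or sodium-activated family (KCa), 3 HCN subunits and 15 accessory subunits. Counts were present in all 28 libraries for 69 of them. Kcnh7, Kcnj4, Kcnip4 and Kcnmb4 were not analysed here.

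The samples were RiboTag preparations, in which Cre recombinase switches on an HA-tagged copy of the ribosomal protein Rpl22 so that ribosomes and their bound RNA can be pulled down from chosen cells. All mice were C57BL/6, aged 3 to 4 weeks, and carried 1 copy of the lox-STOP-lox Rpl22-HA allele (LSL-Rpl22-HA/+). The CaMK2a groups were CaMK2a-Cre/+; LSL-Rpl22-HA/+, and the PV groups were PV-Cre/+; LSL-Rpl22-HA/+, so the tag marks whichever cells use the CaMK2a or the parvalbumin promoter. Each line received kainic acid, which activates kainate-type glutamate receptors and induces seizures, or phosphate-buffered saline (PBS), and each lysate pool gave an anti-HA immunoprecipitate (IP) and an input taken before it. The 8 groups were therefore CaMK2a kainic acid IP, CaMK2a kainic acid input, CaMK2a PBS IP and CaMK2a PBS input, with 3 libraries each, and the 4 corresponding PV groups, with 4 libraries each. Per the labels every treatment lasted 6 h, although the deposited column names mark the PBS groups as 0 h. CA1 of 4 mice was pooled for each CaMK2a replicate (20 ng of RNA amplified) and of 9 to 10 mice for each PV replicate (2.5 ng). Every library therefore averages over mice, and the p-values measure the spread between pools.

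Kv channels open on depolarization and set spike repolarization and repetitive firing, while the silent Kv subunits such as Kcnf1 and Kcnv1 modify the Kv2 channels they join. Kir and K2P channels hold the resting potential, KCa channels follow intracellular calcium or sodium, and HCN channels pass a mixed cation current on hyperpolarization that damps dendritic input in CA1 pyramidal cells. Accessory subunits such as the Kvβ proteins (Kcnab) and the KChIPs (Kcnip) alter the gating and traffic of Kv channels.

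Gene counts per library summed to 6.06 to 15.8 M. PV replicate 4 stood apart from the other PV libraries: mitochondrial genes took 4.10% and 4.83% of its input counts against 7.99% to 10.7% in the other PV inputs, and 0.795% and 0.91% of its IP counts against 1.90% to 3.38% in the other PV IPs. Values without it are given beside the PV results described below. Levels are counts per kilobase of listed gene length per M counts, scaled by the trimmed mean of M values (TMM) over the 28 libraries. Changes are log2 fold changes ± SE from edgeR's quasi-likelihood test on counts, with the p-values adjusted by Benjamini-Hochberg over all genes tested, and a member passed when its adjusted p was under 0.05. Library values are listed in replicate order.

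By summed level after PBS each IP was richer than its input in markers of its labelled cells, and RNA of other cells remained. The summed level of 5 parvalbumin-cell and GABAergic markers after PBS was 530 to 624 in the PV IP, 153 to 169 in the PV input, 132 to 135 in the CaMK2a input and 16.5 to 24.8 in the CaMK2a IP. The sum of 5 CA1 pyramidal markers was 2195 to 2479 in the CaMK2a IP and 1816 to 2061 in its input. Of these 5 markers 4 were higher in that IP and 1 was lower. The sum was 908 to 1075 in the PV IP, against 1853 to 2012 in the PV input, so pyramidal RNA was still present in the PV IP. Astrocyte markers, of which 5 of 7 were present, summed to 112 to 176 in the CaMK2a PBS IP and 388 to 523 in the PV PBS IP. Oligodendrocyte markers, of which 3 of 5 were present, summed to 748 to 1073 in the PV PBS IP and 1034 to 1296 in its input. Of those 3, 1 was lower in that IP. In the CaMK2a PBS IP they summed to 140 to 289.

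Kainic acid moved channel genes in both directions. Of 57 members in the CaMK2a IP 13 rose and 18 fell (54.4%), where 35.1% of all genes passed, 19.8% higher and 15.3% lower; with upper-quartile factors 13 rose and 21 fell, and the share of higher calls among all called genes was 42.4% in place of 56.4%. Of 63 in the CaMK2a input 13 rose and 22 fell (55.6%), where 35% of all genes passed, 19.3% higher and 15.7% lower. Of 58 in the PV input 7 rose and 8 fell (25.9%), where 11.6% of all genes passed, 8.21% higher and 3.36% lower. Of 59 in the PV IP 2 rose and 0 fell (3.39%), where 4.85% of all genes passed, 4.05% higher and 0.801% lower. The median member change was -0.06, -0.16, -0.23 and 0.00 in these 4 comparisons, and that of all genes tested was 0.01, -0.02, -0.02 and -0.02. Because these are bulk fractions, fewer cells of a type and less RNA per cell cannot be told apart. In the CaMK2a input the parvalbumin-cell and GABAergic marker sum was 132 to 135 after PBS and 204 to 206 after kainic acid, with 4 of 5 markers higher, and in the CaMK2a IP it was 16.5 to 24.8 and 29.2 to 79.6, with 3 of 5 higher. The CA1 pyramidal marker sum in the CaMK2a IP was 2195 to 2479 after PBS and 1712 to 2026 after kainic acid, with 2 of 5 markers lower. Of 5 markers of other interneurons 2, the neuropeptides Sst and Npy, were higher in all 4 comparisons. Their 5-marker sum was 2292 to 2688 after PBS and 3354 to 4223 after kainic acid in the CaMK2a IP, and 2248 to 2866 and 3385 to 5344 in the CaMK2a input. It was 826 to 925 and 1824 to 2483 in the PV IP, and 1668 to 1802 and 2445 to 3259 in the PV input. Against input after PBS, 4 of these 5 markers were lower in the CaMK2a IP and 1 was higher (median log2 change -2.13). The sum therefore does not stand for the 5 markers alike, nor for interneuron RNA in the CaMK2a IP. The parvalbumin-cell and GABAergic sum was 530 to 624 after PBS and 668 to 1050 after kainic acid in the PV IP and 153 to 169 and 202 to 239 in the PV input, with 1 of 5 markers higher in each. Astrocyte markers in the CaMK2a input summed to 673 to 692 and 730 to 814, with 2 of 5 higher, and 1 of 5 pyramidal markers was lower in each PV fraction. The part of these shifts in the channel results was not tested.

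In all, 37 members passed in at least 1 of the 4 kainic acid comparisons, and none passed in opposite directions. The 2 that passed in all 4 were Kcnj2 and Kcnd3, both higher. A further 5 rose and 7 fell in 3 comparisons, 5 rose and 11 fell in 2, and 2 rose and 5 fell in 1. The same counts over all genes were not made, so these describe the members only. The kainic acid changes are shown by class in the plot of log2 changes, and the library values of 12 members in the plot of levels.

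**Figure D1:**
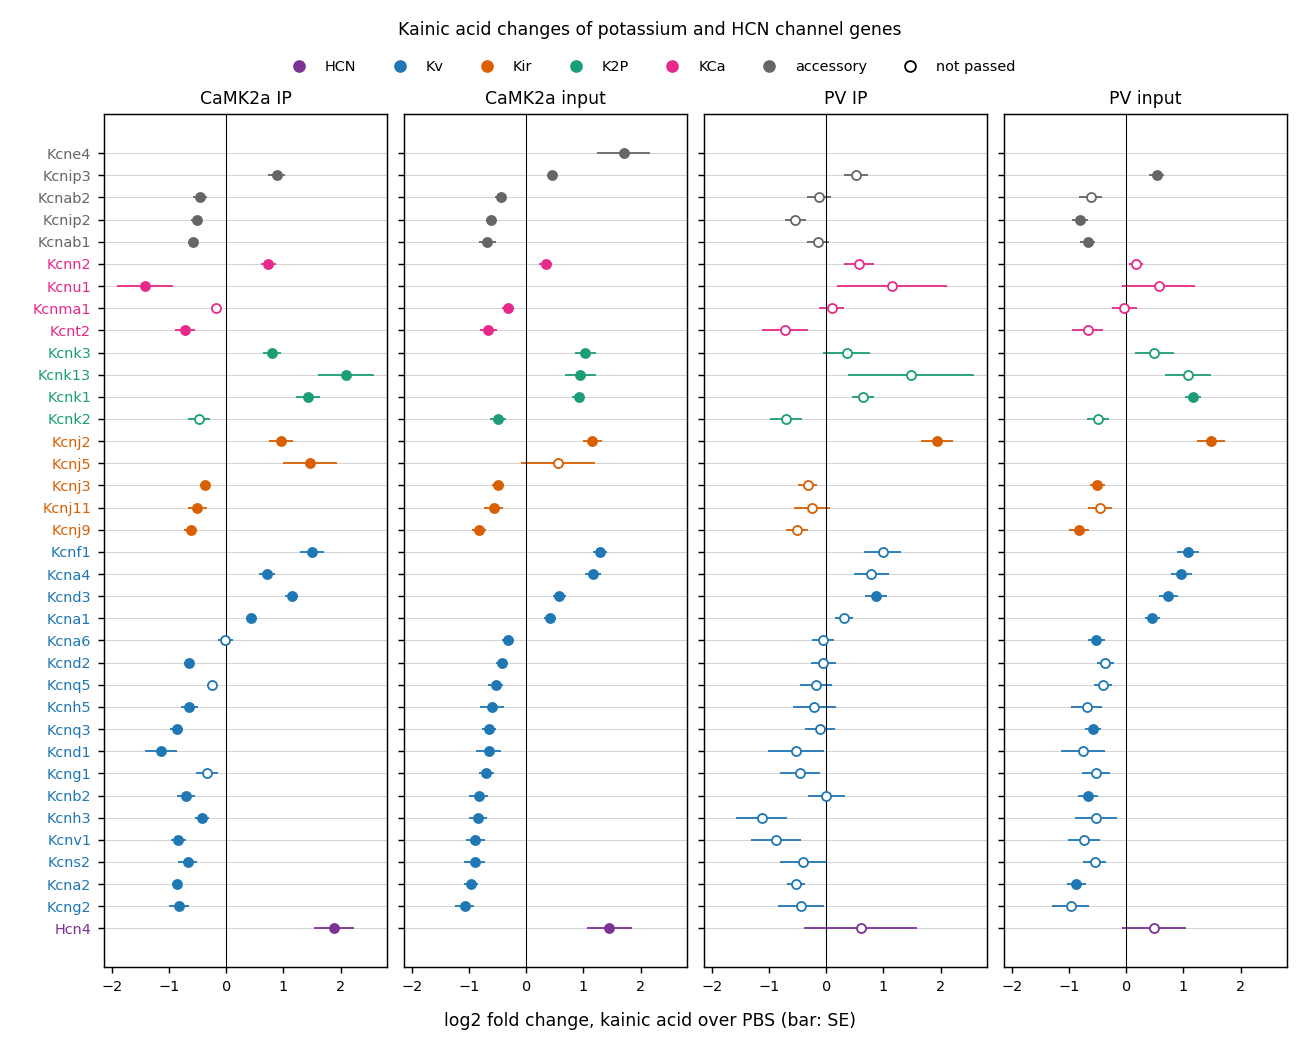
Log2 fold change of kainic acid over PBS (x axis) for 36 of the 37 members that passed in at least 1 of the CaMK2a IP, CaMK2a input, PV IP and PV input; points are edgeR estimates, bars their SE, colours the classes, and open points did not pass. The PV IP panel has filled points at Kcnj2 and Kcnd3, and its estimates for several other members lie on the same side of 0 as in the CaMK2a panels.

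**Figure D2:**
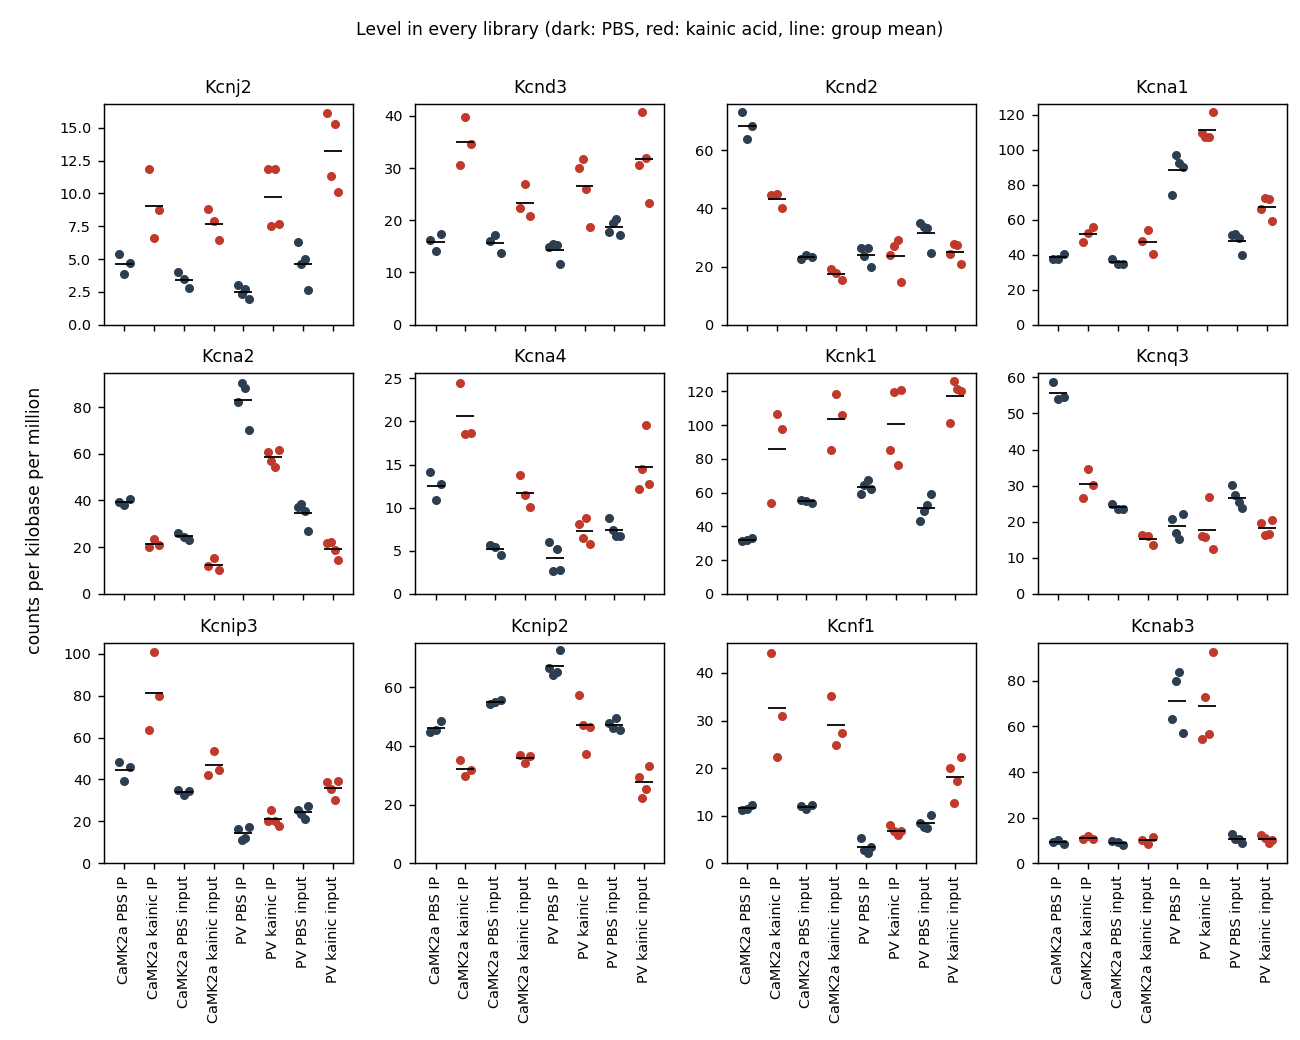
Level in every library (counts per kilobase per M, y axis, linear from 0) of 12 members in the 8 groups; each point is 1 library, dark for PBS and red for kainic acid, and the line is the group mean. Kcnj2 and Kcnd3 are separated by treatment in both lines and both fractions, Kcna1 and Kcna2 move apart in the CaMK2a groups, and Kcnab3 is high in the PV IP groups.

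Kcnj2 encodes Kir2.1, a strong inward rectifier (GeneID 16518, chr11:111066164-111076825, + strand, mm10). Its level in the PV IP was 3, 2.31, 2.68 and 1.97 after PBS and 11.8, 7.49, 11.8 and 7.67 after kainic acid. Its level in the PV input was 6.27, 4.63, 4.98 and 2.67 after PBS and 16.1, 11.3, 15.2 and 10.1 after kainic acid. The lowest treated library lay above the highest PBS library in both, and the changes were 1.94 ± 0.28 (3.83-fold, adjusted p = 0.000309) in the IP and 1.48 ± 0.25 (2.80-fold, adjusted p = 0.00211) in the input. Without replicate 4 of the PV line they were 1.95 ± 0.31 and 1.40 ± 0.16, and both passed. Kcnj2 in the CaMK2a IP was at 5.38, 3.87 and 4.68 after PBS and 11.9, 6.61 and 8.73 after kainic acid, a change of 0.96 ± 0.21 (adjusted p = 0.00589). CaMK2a input libraries had 4.02, 3.51 and 2.77 after PBS and 8.8, 7.88 and 6.42 after kainic acid, a change of 1.16 ± 0.16 (adjusted p = 2.2e-05). The groups did not overlap in either CaMK2a fraction.

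Kcnd3 encodes the Kv4.3 subunit of the A-type current, the fast transient Kv current of dendrites and cell bodies (GeneID 56543, chr3:105452330-105674002, + strand). Its level in the CaMK2a IP was 16.2, 14.1 and 17.4 after PBS and 30.6, 39.7 and 34.6 after kainic acid, a rise of 1.14 ± 0.12 (2.21-fold, adjusted p = 7.8e-05). The CaMK2a input libraries had 16.1, 17.1 and 13.8, then 22.4, 27 and 20.8, a rise of 0.58 ± 0.11 (adjusted p = 0.000592). The groups did not overlap in either. Kcnd3 in the PV IP was at 14.9, 15.5, 15.2 and 11.7 after PBS and 29.9, 31.8, 26 and 18.7 after kainic acid, 0.87 ± 0.20 (adjusted p = 0.0144), and in the PV input at 17.8, 19.4, 20.2 and 17.3, then 30.6, 40.8, 32 and 23.4, 0.73 ± 0.17 (adjusted p = 0.0131). The groups again did not overlap. Without replicate 4 the PV changes were 0.92 ± 0.15 and 0.83 ± 0.11, and both passed. Without PV kainic acid IP replicate 1 or replicate 2 the Kcnd3 change in the PV IP no longer passed (largest adjusted p = 0.0557), and 1 member was then called without replicate 1. Kcnd3 is 1 of 19 members whose exons overlap those of an opposite-strand gene, and the strandedness of the counts is not stated in the sources used here. The others include Kcnab1, Kcnab3, Kcna6, Kcng2, Kcnh3, Kcnq5, Kcnj3, Kcnj6, Kcnj9, Kcnj13, Kcnk1, Kcnk2, Kcnk3, Kcnma1, Kcnn2 and Kcnt2.

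Kcnd2, which encodes Kv4.2, the main A-type subunit of CA1 pyramidal dendrites, moved the other way (GeneID 16508, chr6:21216109-21729805, + strand). The CaMK2a IP libraries had 73, 64 and 68.4 after PBS and 44.7, 44.9 and 40.2 after kainic acid, a fall of -0.65 ± 0.09 (adjusted p = 0.000421). The CaMK2a input libraries had 22.4, 24 and 23.4, then 19, 17.9 and 15.2, a fall of -0.42 ± 0.11 (adjusted p = 0.00503). Neither pair of groups overlapped. Kcnd2 libraries of the PV IP overlapped, with 26.5, 23.7, 26.2 and 19.9 after PBS and 24.1, 27, 29 and 14.8 after kainic acid, a difference of -0.05 ± 0.22 (adjusted p = 0.95), and 0.05 ± 0.17 without replicate 4 (adjusted p = 0.914). The ratio of the Kcnd3 level to the Kcnd2 level, a description of the 2 A-type subunits with no test, was 0.221 to 0.254 in the CaMK2a PBS IP libraries and 0.684 to 0.886 after kainic acid. For the PV IP this ratio was 0.562 to 0.655 after PBS and 0.897 to 1.26 after kainic acid. Kcnd1, the Kv4.1 subunit, fell by 1.14 ± 0.28 on the log2 scale in the CaMK2a IP (adjusted p = 0.0115), from 5.06, 4.47 and 5.72 to 1.69, 3.35 and 1.81, with no overlap. That call was lost without CaMK2a kainic acid IP replicate 3 or PBS IP replicate 3 (largest adjusted p = 0.054).

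The promoter of a member is shown for the 2 genes that rose in all 4 comparisons and for Kcnip3, a riser whose window holds a letter match to the AP-1 site, the sequence bound by Fos and Jun proteins. Each line gives the 250 bases before an annotated RefSeq transcript start (GRCm38.p6), 5′ to 3′ on the gene's strand, for Kcnj2 at chr11:111065914-111066163 (+), Kcnd3 at chr3:105451640-105451889 (+) and 1 of the 3 starts of Kcnip3 at chr2:127522095-127522344 (−). Capitals mark the AP-1 match in Kcnip3, 122 bases before the start. The letters searched on both strands were TGANTCA for AP-1 and TGACGTCA for the cyclic-AMP response element (CRE), and no member window held both.
Kcnj2: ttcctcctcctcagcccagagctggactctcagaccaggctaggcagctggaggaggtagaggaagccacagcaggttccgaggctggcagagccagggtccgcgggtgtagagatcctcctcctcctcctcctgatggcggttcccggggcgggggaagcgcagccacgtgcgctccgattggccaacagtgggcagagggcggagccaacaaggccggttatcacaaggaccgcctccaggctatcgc
Kcnd3: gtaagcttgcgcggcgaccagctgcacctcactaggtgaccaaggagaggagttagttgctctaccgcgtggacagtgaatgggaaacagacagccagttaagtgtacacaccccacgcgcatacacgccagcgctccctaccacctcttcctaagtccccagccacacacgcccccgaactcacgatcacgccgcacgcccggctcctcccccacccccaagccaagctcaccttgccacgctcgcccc
Kcnip3: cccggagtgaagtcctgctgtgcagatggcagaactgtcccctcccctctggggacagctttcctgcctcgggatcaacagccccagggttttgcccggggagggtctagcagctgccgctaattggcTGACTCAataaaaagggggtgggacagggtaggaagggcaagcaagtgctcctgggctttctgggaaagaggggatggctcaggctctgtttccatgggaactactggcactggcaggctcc

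RefSeq windows, running from 250 bases before a start to 50 after it, were found for 53 of the 75 members. An AP-1 match was present in 3 of the 72 member windows (4.17%), those of Kcne3, Kcnip3 and Kcnk2, against 7.81% of all 32851 promoter windows. A CRE match was present in 0 member windows, against 1.79% of all. Among members that rose in any kainic acid comparison 1 of 12 windows held AP-1 letters, and among those that fell 1 of 21 did. A match is a description of the letters, not a site or a cause.

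Of the HCN subunits, Hcn4, a slowly gating subunit better known from cardiac pacemaker cells and thalamus, was low throughout the CaMK2a libraries. It was at 0.406, 0.373 and 0.231 after PBS and 1.25, 1.17 and 1.33 after kainic acid in the CaMK2a IP, 1.88 ± 0.35 (adjusted p = 0.0025), and rose by 1.45 ± 0.40 in the CaMK2a input (adjusted p = 0.00872). Hcn2, the more broadly expressed subunit, did not pass, with -0.11 ± 0.18 in the CaMK2a IP and -0.22 ± 0.20 in the CaMK2a input (adjusted p = 0.67 and 0.43).

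Of 23 Kv subunits tested in the CaMK2a IP 4 rose and 10 fell, 4 rose and 13 fell of 24 in the CaMK2a input, 4 rose and 4 fell of 21 in the PV input, and 1 rose and 0 fell of 21 in the PV IP. In that order 19.8%, 19.3%, 8.21% and 4.05% of all genes rose and 15.3%, 15.7%, 3.36% and 0.801% fell. The PV IP count, 4.76% of the Kv subunits tested, lay near the 4.85% of all genes that passed there. Kcna1 and Kcna2, which encode the Kv1.1 and Kv1.2 subunits of the axonal low-threshold current, changed in opposite directions. Kcna1 was at 37.8, 37.5 and 40.4 after PBS and 47.2, 52.5 and 56 after kainic acid in the CaMK2a IP, 0.44 ± 0.09 (adjusted p = 0.0039). Kcna2 was at 39.5, 38.1 and 40.6 after PBS and 20.2, 23.4 and 20.9 after kainic acid, -0.86 ± 0.08 (adjusted p = 5.65e-05). The groups did not overlap for either gene. Both also passed in the CaMK2a input (0.42 ± 0.10 and -0.97 ± 0.12) and in the PV input (0.46 ± 0.13 and -0.87 ± 0.17), although the Kcna1 call in the PV input was lost when any of 7 of the 8 libraries was left out, all but PV kainic acid input replicate 4 (largest adjusted p = 0.124). Without both replicate 4 inputs the PV input changes were 0.44 ± 0.07 and -0.85 ± 0.08, and both passed.

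The Kcna2 groups of the PV IP did not overlap, at 82.3, 90.4, 88.3 and 70.3 after PBS and 60.9, 57, 54.3 and 61.6 after kainic acid, but the change of -0.53 ± 0.16 had an adjusted p of 0.07. Without replicate 4 of the PV line it was -0.62 ± 0.10 and passed (adjusted p = 0.000863). Without PV kainic acid IP replicate 4 or PBS IP replicate 4 alone it also passed (adjusted p = 0.0253 and 0.0331), as it did with upper-quartile factors, DESeq2, the replicate block and all groups of the line (adjusted p = 0.0355, 0.0155, 0.0131 and 0.035). It did not pass with factors by relative log expression, no filter or the stricter filter, or with any other PV IP library left out. Across treatments only number 4 clearly paired in the PV IPs (r = 0.362, against -0.124 to -0.0961 with other numbers). Numbers 1 to 3 were at 0.05, 0.0351 and 0.0529, so the block rests mainly on replicate 4 in this fraction. The ratio of the Kcna1 to the Kcna2 level was 0.956 to 0.996 in the CaMK2a PBS IP and 2.24 to 2.68 in the kainic acid IP, and 0.9 to 1.29 and 1.8 to 1.98 in the PV IP. These ratios are descriptions with no test.

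Kcna4, the Kv1.4 subunit of a transient axonal current, rose in both CaMK2a fractions and in the PV input. It was at 14.1, 10.8 and 12.7 after PBS and 24.5, 18.6 and 18.6 after kainic acid in the CaMK2a IP, 0.72 ± 0.14 (adjusted p = 0.00338). The CaMK2a input libraries had 5.67, 5.49 and 4.48, then 13.8, 11.4 and 10, 1.17 ± 0.14 (adjusted p = 4.08e-06). The PV input change was 0.96 ± 0.18 (adjusted p = 0.00434), and the groups did not overlap in these 3 fractions. Kcnf1, a silent subunit of Kv2 channels (GeneID 382571, chr12:17172100-17176888, − strand), was at 11.2, 11.4 and 12.3 after PBS and 44.3, 22.4 and 30.9 after kainic acid in the CaMK2a IP, 1.49 ± 0.21 (adjusted p = 0.000494). It rose by 1.29 ± 0.12 in the CaMK2a input (adjusted p = 2.6e-07) and by 1.08 ± 0.19 in the PV input (adjusted p = 0.00294). Without replicate 4 the PV input changes of Kcna4 and Kcnf1 were 0.99 ± 0.16 and 1.06 ± 0.15, and both passed. The PV IP groups did not overlap, at 5.39, 2.7, 2.05 and 3.44 against 8, 6.71, 5.93 and 6.78, but 0.99 ± 0.33 did not pass (adjusted p = 0.11), nor did 1.01 ± 0.39 without replicate 4 (adjusted p = 0.158). The Kcnf1 change in the PV IP passed with DESeq2, the replicate block, all groups of the line and without PV PBS IP replicate 1 (adjusted p = 0.0412, 0.0331, 0.016 and 0.0421). It did not pass with factors by relative log expression, upper-quartile factors, no filter or the stricter filter, or with any other PV IP library left out.

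The Kv subunits that fell in both CaMK2a fractions came from several branches. Kcnq3, a subunit of the M-current that limits repetitive firing, was at 58.8, 54 and 54.5 after PBS and 26.5, 34.7 and 30.1 after kainic acid in the IP, -0.87 ± 0.11 (adjusted p = 0.000277), with no overlap, and fell by 0.65 ± 0.12 in the CaMK2a input and by 0.58 ± 0.14 in the PV input. The Kcnq3 call in the PV input was lost without kainic acid input replicate 2 or 3 or PBS input replicate 1 or 2 (largest adjusted p = 0.0829). Its relative Kcnq5 fell in the input (-0.53 ± 0.13, adjusted p = 0.00352) and had an adjusted p of 0.054 in the IP. The silent subunits Kcnv1 (-0.84 ± 0.13 in the IP, -0.89 ± 0.17 in the input), Kcng2 (-0.82 ± 0.17 and -1.07 ± 0.17) and Kcns2 (-0.68 ± 0.16 and -0.90 ± 0.18) fell, opposite in direction to Kcnf1. Kcng2 was at 7.77, 8.8 and 11.4 after PBS and 5.49, 5.35 and 4.87 after kainic acid in the IP, with no overlap. Kcnb2, a Kv2 pore subunit, fell in the IP (-0.71 ± 0.16), the CaMK2a input (-0.83 ± 0.16) and the PV input (-0.67 ± 0.18), a PV input call lost without any of kainic acid input replicates 1, 2 and 3 and PBS input replicates 1, 2 and 3 (largest adjusted p = 0.106). Without replicate 4 the PV input changes of Kcnq3 and Kcnb2 were -0.68 ± 0.13 and -0.60 ± 0.16, and both passed. The silent subunit Kcng1 fell in the CaMK2a input (-0.70 ± 0.13, adjusted p = 0.000409). The ether-a-go-go subunits Kcnh3 (-0.84 ± 0.15 in the input) and Kcnh5 (-0.60 ± 0.21 in the input) fell in both CaMK2a fractions. The Kcnh3 call in the IP was lost without CaMK2a kainic acid IP replicate 3, PBS IP replicate 2 or PBS IP replicate 3 (largest adjusted p = 0.111), and the Kcnh5 call in the input without 4 of the 6 libraries, kainic acid input replicates 1 and 3 and PBS input replicates 1 and 2 (largest adjusted p = 0.18). Kcna6, a Kv1 subunit, was called lower in the PV input (-0.52 ± 0.15, adjusted p = 0.0475; -0.41 ± 0.13 without replicate 4), a call lost without any of 7 of the 8 libraries, all but kainic acid input replicate 4 (largest adjusted p = 0.146).

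Among the Kir genes Kcnj2 was the only member that passed higher in both CaMK2a fractions. In the IP 3 of 10 fell, where 15.3% of all genes did, and in the input 3 of 11, where 15.7% did. The 3 that fell were the same in both, Kcnj3 and Kcnj9, which encode GIRK subunits opened by G proteins downstream of inhibitory receptors, and Kcnj11, the pore of the ATP-sensitive channel. Kcnj9 was at 33.1, 28.5 and 33.3 after PBS and 21.2, 17.8 and 22.3 after kainic acid in the IP, -0.62 ± 0.11 (adjusted p = 0.00239), with no overlap, and fell by 0.83 ± 0.12 in the CaMK2a input and by 0.83 ± 0.18 in the PV input (-0.76 ± 0.16 without replicate 4). Kcnj3 changed by -0.37 ± 0.09 in the IP (adjusted p = 0.00882) and -0.49 ± 0.10 in the input (adjusted p = 0.00108). In the PV input Kcnj3 was at -0.50 ± 0.13 (adjusted p = 0.022; -0.53 ± 0.09 without replicate 4), lost without kainic acid input replicate 1 or PBS input replicate 1, 2 or 3 (largest adjusted p = 0.0844). Kcnj6, a further GIRK subunit, did not pass, with 0.24 ± 0.11 in the IP and 0.28 ± 0.11 in the input (adjusted p = 0.11 and 0.067). Kcnj5, another GIRK subunit, passed higher in the CaMK2a IP at 1.46 ± 0.47 (adjusted p = 0.0339) on 14, 5 and 9 counts after PBS and 17, 12 and 30 after kainic acid. That Kcnj5 call was lost without any of 5 of the 6 libraries, all but CaMK2a kainic acid IP replicate 2, and so was the Kcnj11 call in the IP, without any library but the same one (largest adjusted p = 0.166 and 0.107). The Kcnj5 call was also lost with no filter, the replicate block and all groups of the line. The Kcnj11 call in the input was lost without CaMK2a PBS input replicate 1 (adjusted p = 0.0895). Kcnj10, the astrocyte inward rectifier, did not pass in either CaMK2a fraction (0.10 ± 0.36 in the IP, 0.11 ± 0.09 in the input).

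The K2P genes were led by Kcnk1, which encodes TWIK1, a weakly conducting leak channel subunit (GeneID 16525, chr8:125995102-126030685, + strand). Kcnk1 in the CaMK2a IP was at 31.3, 31.8 and 33.4 after PBS and 54.1, 107 and 97.3 after kainic acid, a rise of 1.43 ± 0.21 (2.69-fold, adjusted p = 0.000603). The CaMK2a input libraries had 55.9, 55.1 and 53.9, then 85.4, 119 and 106, 0.91 ± 0.11 (adjusted p = 6.16e-06), and in the PV input at 43, 49.2, 52.8 and 59.3, then 101, 126, 121 and 120, 1.17 ± 0.14 (adjusted p = 0.000201). The groups did not overlap in these 3 fractions. Without replicate 4 the PV input change was 1.24 ± 0.10 and passed. The PV IP groups did not overlap either, at 59.4, 64.6, 67.2 and 62.2 against 85.4, 120, 76.3 and 121, but 0.64 ± 0.19 did not pass (adjusted p = 0.067), nor did 0.54 ± 0.17 without replicate 4 (adjusted p = 0.0801). It passed without PV kainic acid IP replicate 3, at 0.75 ± 0.20 (adjusted p = 0.0465), and with DESeq2, the replicate block, the stricter filter and all groups of the line (adjusted p = 0.0218, 0.0208, 0.0492 and 0.0149). It did not pass with factors by relative log expression, upper-quartile factors or no filter, or with any other PV IP library left out. Kcnk1 is another of the members with an overlapping opposite-strand gene.

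Kcnk3, the acid-sensitive channel TASK1, rose in the CaMK2a IP from 2.62, 2.6 and 2.84 to 4.86, 4.78 and 4.28 (0.80 ± 0.15, adjusted p = 0.00322) and in the input by 1.04 ± 0.19 (adjusted p = 0.000292). Its groups did not overlap. Kcnk13, which encodes THIK1, a K2P channel known from microglia, was at 0.289, 0.207 and 0.25 after PBS and 1.15, 0.535 and 1.59 after kainic acid in the CaMK2a IP, the largest change among the members that passed there, 2.10 ± 0.49 (adjusted p = 0.00809). Kcnk13 rests on few counts in that fraction, at 0.9, 0.643 and 0.779 per M after PBS and 3.57, 1.67 and 4.94 after kainic acid. In the input it was at 1.31, 0.99 and 1.02, then 2.6, 1.87 and 1.97, 0.95 ± 0.28 (adjusted p = 0.0128). The Kcnk13 call was lost in the IP without CaMK2a kainic acid IP replicate 3 (adjusted p = 0.0515) and in the input without kainic acid input replicate 1 or PBS input replicate 2 (largest adjusted p = 0.0683). Microglial markers summed to 4.46 to 9.99 in the PBS IP and 4.59 to 9.75 in the kainic acid IP, with 0 of the 4 tested markers passing, and to 74.8 to 80.4 and 59.9 to 72.8 in the inputs, with 1 of 5 higher and 2 lower. Kcnk2, the mechanosensitive channel TREK1, fell in the CaMK2a input (-0.50 ± 0.14, adjusted p = 0.0107), a call lost without PBS input replicate 1 (adjusted p = 0.0718), and Kcnk9, TASK3, did not pass in either fraction (-0.10 ± 0.13 and -0.34 ± 0.18).

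In the KCa family Kcnn2, the small-conductance SK2 channel, rose in the CaMK2a IP (0.74 ± 0.13, adjusted p = 0.00214) and Kcnt2, a sodium-activated channel, fell in both CaMK2a fractions (-0.72 ± 0.18 in the IP, -0.66 ± 0.14 in the input). The Kcnn2 change in the CaMK2a input, 0.34 ± 0.12 (adjusted p = 0.034), was lost without kainic acid input replicate 3, PBS input replicate 1 or PBS input replicate 2 (largest adjusted p = 0.197). Kcnma1, the large-conductance BK channel, was called lower in the input at -0.32 ± 0.11 (adjusted p = 0.0238), lost without any of 5 of the 6 libraries, all but kainic acid input replicate 2 (largest adjusted p = 0.103), and was at -0.17 ± 0.07 in the IP (adjusted p = 0.094). Kcnn3, SK3, did not pass in the CaMK2a IP or input (0.25 ± 0.13 and -0.16 ± 0.14). Kcnu1, a pH-sensitive relative of BK best known from sperm, was called lower in the CaMK2a IP at -1.42 ± 0.49 (adjusted p = 0.0466) on 40, 8 and 26 counts after PBS and 5, 6 and 9 after kainic acid. That Kcnu1 call was lost without any of 5 of the 6 libraries, all but PBS IP replicate 2 (largest adjusted p = 0.182), and with DESeq2, no filter, the replicate block and all groups of the line.

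Among the accessory subunits the KChIPs, partners of the A-type channels, moved in opposite directions, and the Kvβ subunits called in the CaMK2a fractions both fell. Kcnip3 (KChIP3, also called DREAM, GeneID 56461, chr2:127456498-127521425, − strand) was at 48.2, 39 and 45.8 after PBS and 63.4, 101 and 79.7 after kainic acid in the CaMK2a IP, 0.88 ± 0.15 (adjusted p = 0.00164). Kcnip2 (KChIP2) was at 44.6, 45.6 and 48.6, then 35, 29.6 and 31.7, -0.52 ± 0.10 (adjusted p = 0.00308). The groups did not overlap for either gene, and both passed in the same direction in the CaMK2a input (0.46 ± 0.10 and -0.62 ± 0.10) and the PV input (0.53 ± 0.14 and -0.81 ± 0.15). The Kcnip3 call in the PV input was lost without any of 5 of the 8 libraries, kainic acid input replicates 1 and 2 and PBS input replicates 1, 2 and 3 (largest adjusted p = 0.0953). Without replicate 4 the Kcnip3 and Kcnip2 changes in the PV input were 0.55 ± 0.10 and -0.93 ± 0.11, and both passed. The Kvβ subunits Kcnab1 (-0.58 ± 0.09 in the IP, -0.68 ± 0.14 in the input) and Kcnab2 (-0.46 ± 0.12 and -0.44 ± 0.10) fell in both CaMK2a fractions. Kcnab1 also fell in the PV input (-0.68 ± 0.13, adjusted p = 0.00458; -0.67 ± 0.13 without replicate 4). The Kcnab2 call in the IP was lost without CaMK2a kainic acid IP replicate 3, PBS IP replicate 1 or PBS IP replicate 3 (largest adjusted p = 0.0635).

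Kcne4, a single-span subunit that inhibits some Kv channels, rose in the CaMK2a input on low counts, from 5, 12 and 9 to 27, 27 and 15 (1.70 ± 0.46, adjusted p = 0.00829). The Kcne4 call was lost without CaMK2a PBS input replicate 1 (adjusted p = 0.059), and in the same fraction endothelial and mural markers summed to 17.7 to 19.8 after PBS and 23.2 to 26.5 after kainic acid, with 3 of 5 higher; their part in the Kcne4 change was not tested.

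By the deviations of same-numbered libraries only replicate 4 clearly paired across the PV inputs (r = 0.616). Numbers 1 to 3 were at 0.159, 0.145 and 0.143, where differently numbered libraries among them reached 0.0983 to 0.201. With the number as a block 10 members rose and 19 fell in the PV input, in place of 7 and 8, where 30.7% of all genes passed under the block in place of 11.6%. The block added 14 members and removed 0. Those added included Kcnd2 (-0.37, adjusted p = 0.00327), Kcnab2 (-0.61, adjusted p = 1.65e-06), Kcnq5 (-0.43, adjusted p = 0.00154), Kcnt2 (-0.67, adjusted p = 0.000202), Kcnv1 (-0.79, adjusted p = 0.000161) and Kcnk2 (-0.52, adjusted p = 0.0064). Without replicate 4 of the PV line 9 members rose and 15 fell there, where 24.8% of all genes passed. Without PV PBS input replicate 1 or PBS input replicate 2 the PV input count was 9 in place of 15.

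Of the PV IP members 4 were called without replicate 4, where 6.87% of all genes passed, the added pair being Kcna2 and Kcnip3 (0.71 ± 0.20, adjusted p = 0.0439). Leaving out 1 library at a time gave 1 to 4 members in the PV IP, with 1 without PV kainic acid IP replicate 1, 4 without PV kainic acid IP replicate 3, and 3 without each of kainic acid IP replicate 4, PBS IP replicate 1, PBS IP replicate 3 and PBS IP replicate 4. The largest estimate in the PV IP, Kcnrg at 2.31 ± 0.79, did not pass (adjusted p = 0.12; 2.75 ± 0.90 and 0.0878 without replicate 4) but did with DESeq2 alone among the settings tried (adjusted p = 0.0273). Kcnk13 (1.48 ± 1.10, adjusted p = 0.57, with 3.84 in 1 treated library and 0.0643 to 0.501 in the others), Kcne2 (-1.33 ± 1.06), Kcnk4 (-1.20 ± 0.97) and Kcnn3 (-1.15 ± 0.41, adjusted p = 0.15) had the next-largest rise and the 3 largest falls among the estimates that did not pass. Kcnn3 passed with the replicate block and without PV kainic acid IP replicate 2 (adjusted p = 0.0341 and 0.0158), and in no other setting. At an unadjusted p under 0.05 there were 16 of 59 members in the PV IP, where 15.9% of all genes were under it. Groups did not overlap for 10 of the 59 members and for 11.1% of all genes tested. An adjusted p over the threshold here does not show that PV cells left these genes unchanged.

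The inputs of the 2 lines come from different mice and hold the same tissue. Of 57 members tested in both, 7 rose in both, which is 58.3% of those that rose in the CaMK2a input and 100% of those in the PV input. Both inputs shared 8 falls, 36.4% and 100%, and 0 members passed in opposite directions. The overlap over all genes was not counted, so it is not known whether channel genes overlapped more than others.

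By summed level the classes shifted in share more than in total. All members together summed to 856 ± 29.5 (SD, n = 3) in the CaMK2a PBS IP and 891 ± 39.3 after kainic acid. K2P genes made up 6.86% ± 0.17 of that sum after PBS and 12.5% ± 2.3 after kainic acid, and Kv genes 40.7% ± 0.40 and 35.2% ± 1.6. Kcnk1 made up 54.8% ± 0.70 of the K2P sum in the CaMK2a PBS IP and 75.6% ± 9.6 after kainic acid, while the other K2P genes summed to 26.5 ± 0.54 and 25.7 ± 3.8. The K2P share in the PV IP was 9.48% ± 0.87 (SD, n = 4) after PBS and 13.2% ± 2.9 after kainic acid, and in the CaMK2a and PV inputs it went from 11.1% ± 0.14 to 17.6% ± 1.6 and from 9.88% ± 1.5 to 17.3% ± 1.6. These sums are descriptions and carry no test.

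**Figure D3:**
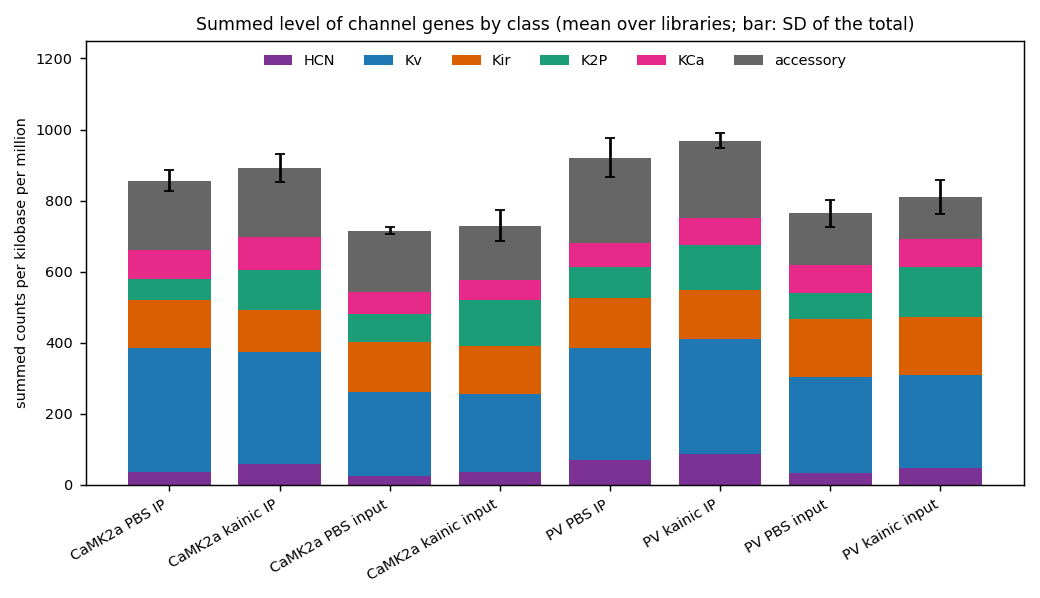
Summed level of the members by class (counts per kilobase per M, y axis from 0) in the 8 groups, as stacked means over the 3 CaMK2a or 4 PV libraries, with the SD of the total as the bar. The total was 856 in the CaMK2a PBS IP and 891 after kainic acid, and the K2P segment is taller after kainic acid in both lines and both fractions.

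The order of levels differed between the fractions. In the CaMK2a PBS IP the highest member was Kcnd2 at 68.5 ± 4.5 (SD, n = 3), followed by Kcnq3 at 55.8, Kcnab2 at 55.4, Kcnj3 at 50.1 and Kcnma1 at 47.2. The Kcnd2 libraries lay above all Kcnq3 libraries and the Kcnab2 libraries above all Kcnj3 libraries, while Kcnq3 overlapped Kcnab2 and Kcnj3 overlapped Kcnma1. After kainic acid the CaMK2a IP was led by Kcnk1 at 86.1 ± 28.1 and Kcnip3 at 81.3 ± 18.8, whose library ranges overlap, and Kcna1 was at 51.9. High in the PV PBS IP were Kcna1 at 88.5 ± 10.0 (SD, n = 4), Kcna2 at 82.8, Kcnab3 at 71.1, Kcnip2 at 67.1 and Kcnk1 at 63.4, and the ranges of neighbours in this order overlap.

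Comparing IP with input asked which channel RNAs were bound by tagged ribosomes more than in the whole tissue. These fits did not pair the IP and input of a lysate pool, except where the pool block is named. In the CaMK2a line after PBS 21 members were higher and 17 lower of 60 tested, where 64.2% of all genes passed, 32.6% higher and 31.6% lower. The highest was Kcnd2, at 22.4, 24 and 23.4 in the input and 73, 64 and 68.4 in the IP, 1.58 ± 0.06 (adjusted p = 3.22e-12). Kcnh5 (1.47 ± 0.15), Kcna4 (1.28 ± 0.11), Kcnq3 (1.24 ± 0.07), Kcnab1 (1.21 ± 0.07), Kcnb2 (1.16 ± 0.11), Kcnj3 (1.04 ± 0.06) and Kcnma1 (0.84 ± 0.05) followed. Kcnj10 was at 52.4, 52.1 and 51.5 in the input and 7.8, 11.8 and 7.04 in the IP, -2.55 ± 0.13 (adjusted p = 3.28e-11), and its glial partner Kcnj16 at -2.29 ± 0.17. Kcne1l (-4.48 ± 0.45), Kcnmb2 (-3.16 ± 0.44), the vascular Kcnj8 (-3.11 ± 0.61), Kcnj13 (-2.52 ± 0.57) and Kcnk13 (-2.09 ± 0.38) were also lower in the IP. In the IP libraries Kcne1l was at 0.257, 0.129 and 0.195 counts per M and Kcnj8 at 0.0643, 0.129 and 1.17. The sizes of their falls rest on few counts, as do those of Kcnmb2 and Kcnk13. Kcnk1 was lower in the IP at -0.76 ± 0.07, and so was Hcn2 (-0.56 ± 0.16).

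Kcnj13, known from choroid plexus epithelium, was at 7.78, 6.85 and 1.08 in the CaMK2a PBS inputs and 9.37, 14.7 and 0.455 in the kainic acid inputs, and the summed level of 2 choroid plexus markers ranged from 226 to 3035 and from 17.8 to 3377 in those groups. The part of choroid plexus tissue in Kcnj13 was not tested.

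In the CaMK2a line after kainic acid 22 members were higher and 13 lower of 60, where 50.1% of all genes passed, 24.3% higher and 25.8% lower. The calls overlapped with those after PBS in 18 members that were higher (85.7% and 81.8% of the members higher in each, counting the 58 tested in both) and 11 that were lower, and the overlap over all genes was not counted. The largest were Kcnh5 (1.38 ± 0.21), Kcnd2 (1.30 ± 0.14), Kcnab1 (1.27 ± 0.17), Kcnb2 (1.23 ± 0.20), Kcnj3 (1.11 ± 0.13), Kcnq3 (0.97 ± 0.15), the silent subunit Kcns1 (0.96 ± 0.30) and Kcnma1 (0.94 ± 0.14). On the lower side were Kcne4 (-3.79 ± 0.60), Kcne1l (-3.66 ± 0.56), Kcnj8 (-3.50 ± 0.48), Kcnj13 (-2.67 ± 0.92), Kcnj10 (-2.59 ± 0.32), Kcnj16 (-2.02 ± 0.34), Kcnk6 (-1.43 ± 0.43) and Kcnmb2 (-1.38 ± 0.41). Among these the Kcns1 call was lost without kainic acid input replicate 1 or 3 or IP replicate 3 (largest adjusted p = 0.086). Calls were also lost for Kcnj13 without input replicate 1 or 2 or IP replicate 3, Kcnk6 without input replicate 1 or 2 or IP replicate 2, and Kcnmb2 without input replicate 3 or IP replicate 3 (largest adjusted p = 0.187, 0.0654 and 0.0718). With lysate pool as a block 37 members passed, where 54.8% of all genes did, which added Kcnk1 at -0.33 (adjusted p = 0.0356) and Kcnq5.

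In the PV line after PBS 12 members were higher in the IP and 11 lower of 58, where 18.5% of all genes passed, 10.6% higher and 7.98% lower. Kcnab3, a Kvβ subunit (GeneID 16499, chr11:69326258-69333041, + strand), was at 12.8, 10.8, 10.5 and 8.87 in the input and 63.3, 80, 83.8 and 57.2 in the IP, 2.76 ± 0.18 (6.77-fold, adjusted p = 2.54e-07), with no overlap. In the CaMK2a line Kcnab3 was at 9.72, 9.14 and 8.02 in the PBS input and 9.17, 10.2 and 8.4 in the PBS IP. Kcnmb2, a BK β subunit that inactivates the channel (GeneID 72413, chr3:31902132-32200180, + strand), was at 0.908, 0.618, 0.524 and 0.441 in the PV input and 2, 3.36, 2.68 and 3.48 in the PV IP, 2.25 ± 0.33 (adjusted p = 0.000312). Kcnk3 (2.05 ± 0.34), Kcnip1 (1.38 ± 0.18), Kcna2 (1.29 ± 0.15), Kcnd1 (1.18 ± 0.39) and Kcnj11 (1.04 ± 0.22) were also higher, and Kcna1 was at 0.91 ± 0.14. Without replicate 4 these were 2.76 for Kcnab3, 1.99 for Kcnmb2, 1.94 for Kcnk3, 1.33 for Kcnip1, 1.25 for Kcna2, 0.90 for Kcnj11 and 0.81 for Kcna1, which all passed. Kcnd1, at 1.30, did not (adjusted p = 0.0508).

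Lower in the PV IP after PBS were Kcnj13 (-2.20 ± 0.62), Kcnk9 (-1.28 ± 0.32), Kcnf1 (-1.27 ± 0.28), Kcnt2 (-1.01 ± 0.25), Kcnj2 (-0.86 ± 0.28), Kcnq5 (-0.80 ± 0.16), Kcns2 (-0.77 ± 0.23) and Kcnip3 (-0.74 ± 0.18). The Kcnj2 call was lost without any of 6 of the 8 libraries, all but PV PBS input replicate 4 and IP replicate 1, and the Kcnd1 call without any of 5, PBS input replicates 1, 3 and 4 and IP replicates 2 and 3 (largest adjusted p = 0.178 and 0.149). Without PV PBS input replicate 3 the Kcnj13, Kcns2 and Kcnt2 calls were lost, as were Kcnj13 without PBS input replicate 2 or IP replicate 2 and Kcns2 without PBS input replicate 1 or IP replicate 2 (largest adjusted p = 0.129, 0.0961 and 0.0508 for Kcnj13, Kcns2 and Kcnt2). Without replicate 4 of the PV line these 8 changes were -2.30, -1.25, -1.20, -1.09, -0.97, -0.76, -0.75 and -0.80 in the same order, and all but that of Kcns2 passed (adjusted p = 0.0508). After kainic acid 14 members were higher and 7 lower of 58, where 11% of all genes passed, 6.85% higher and 4.11% lower; with upper-quartile factors 14 were higher and 8 lower, and the share of higher calls among all called genes was 50.9% in place of 62.5%. The members that were higher were led by Kcnab3 (2.76 ± 0.23), Kcnmb2 (2.04 ± 0.39), Kcnk3 (1.92 ± 0.44), Kcna2 (1.65 ± 0.18), Hcn2 (1.53 ± 0.35), Kcnip1 (1.46 ± 0.26), Kcnj11 (1.26 ± 0.32) and Kcnk12 (1.09 ± 0.28). The 7 that were lower were Kcnj13 (-2.53 ± 0.49), Kcnf1 (-1.35 ± 0.22), Kcnh3 (-1.28 ± 0.38), Kcnj16 (-1.21 ± 0.29), Kcna4 (-0.96 ± 0.23), Kcnk2 (-0.87 ± 0.26) and Kcnip3 (-0.73 ± 0.18). Of these 15 members Kcnj11 and Kcnh3 did not pass without replicate 4 of the PV line (1.13 and -1.39, adjusted p = 0.061 and 0.0503). The others did, at 2.57, 1.88, 1.63, 1.51, 1.43, 1.27 and 1.07 for those higher and -2.89, -1.23, -1.23, -0.93, -0.91 and -0.61 for those lower, in the order given. With 1 library left out the calls of Kcnh3 (any of 7 of the 8, all but kainic acid IP replicate 4), Kcnk2 (any of 6, all but input replicate 4 and IP replicate 1), Kcnk12 (input replicates 1, 2 and 3 and IP replicate 1) and Kcnj11 (input replicates 1 and 3 and IP replicates 3 and 4) were lost. So were those of Kcnj16 without input replicate 1 or 2, Kcna4 without input replicate 3 and Kcnip3 without input replicate 1 (largest adjusted p = 0.172). Without PV kainic acid input replicate 3 the count of members called after kainic acid was 13 in place of 21 and Hcn2 did not pass (adjusted p = 0.0509). Of the members that were higher 11 passed both after PBS and after kainic acid (91.7% and 78.6%), and the overlap over all genes was not counted. With lysate pool as a block 30 members passed after PBS and 27 after kainic acid, where 30.1% and 21.4% of all genes did, which added among others Kcnk1 at 0.35 after PBS (adjusted p = 0.0237), and without replicate 4 of the PV line the counts were 25 and 21, where 23.4% and 15.4% of all genes passed.

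The difference between the lines was tested directly, as the IP-over-input change of the PV line minus that of the CaMK2a line after PBS. Of 64 members 15 were higher in the PV line and 18 lower, where 27.5% of all genes passed, 13.3% higher and 14.3% lower. By class the Kv subunits gave 4 higher and 10 lower of 24, and the accessory subunits 6 higher and 2 lower of 12. K2P gave 2 and 2 of 9, Kir 3 and 2 of 11, and KCa 0 and 2 of 5. Kcnd2 (-1.99 ± 0.19, adjusted p = 9e-07), Kcna4 (-2.14 ± 0.35), Kcnh5 (-1.86 ± 0.31), Kcnk9 (-1.79 ± 0.35) and Kcnq3 (-1.77 ± 0.20) leaned to the CaMK2a line. Kcnmb2 (5.33 ± 0.57, adjusted p = 3e-06), Kcnab3 (2.65 ± 0.24, adjusted p = 4.05e-07), Kcnip1 (2.56 ± 0.23, adjusted p = 4.3e-07), Kcnk1 (1.04 ± 0.17), Kcna1 (0.73 ± 0.17) and Kcna2 (0.55 ± 0.18) leaned to the PV line. The Kcna2 difference was lost without any of 7 of the 14 libraries, CaMK2a PBS input replicates 1 and 2, CaMK2a PBS IP replicates 1, 2 and 3 and PV PBS IP replicates 2 and 3 (largest adjusted p = 0.0893).

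Kcnj10 also leaned to the PV line (1.87 ± 0.23, adjusted p = 1.33e-05), and in the same difference all 5 astrocyte markers tested were higher, as were 3 of 3 oligodendrocyte markers and 4 of 5 microglial markers; the part of glial RNA in these differences was not tested. The 3 largest differences rest on few counts. Kcnh4 (-5.10 ± 1.42) had 0, 1, 1 and 0 counts in the PV PBS IP and Kcne4 (6.53 ± 2.04) had 0, 0 and 1 in the CaMK2a PBS IP, so their sizes depend on the prior count. Kcnmb2 had 7, 8 and 2 counts in the CaMK2a PBS IP. Without replicate 4 the Kcnh4 difference was -2.82 ± 1.09 and did not pass (adjusted p = 0.053). Kcne4 was then at 7.08 ± 2.15, Kcnmb2 at 5.13 ± 0.59 and Kcnab3 at 2.70 ± 0.20, and Kcnip1 at 2.57 ± 0.21, Kcnj10 at 1.99 ± 0.22, Kcnk1 at 1.18 ± 0.13, Kcna1 at 0.68 ± 0.12 and Kcna2 at 0.56 ± 0.09. Those leaning to the CaMK2a line were then at -1.96 for Kcnd2, -1.99 for Kcna4, -1.75 for Kcnh5, -1.69 for Kcnk9 and -1.87 for Kcnq3, and all of these passed.

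**Figure D4:**
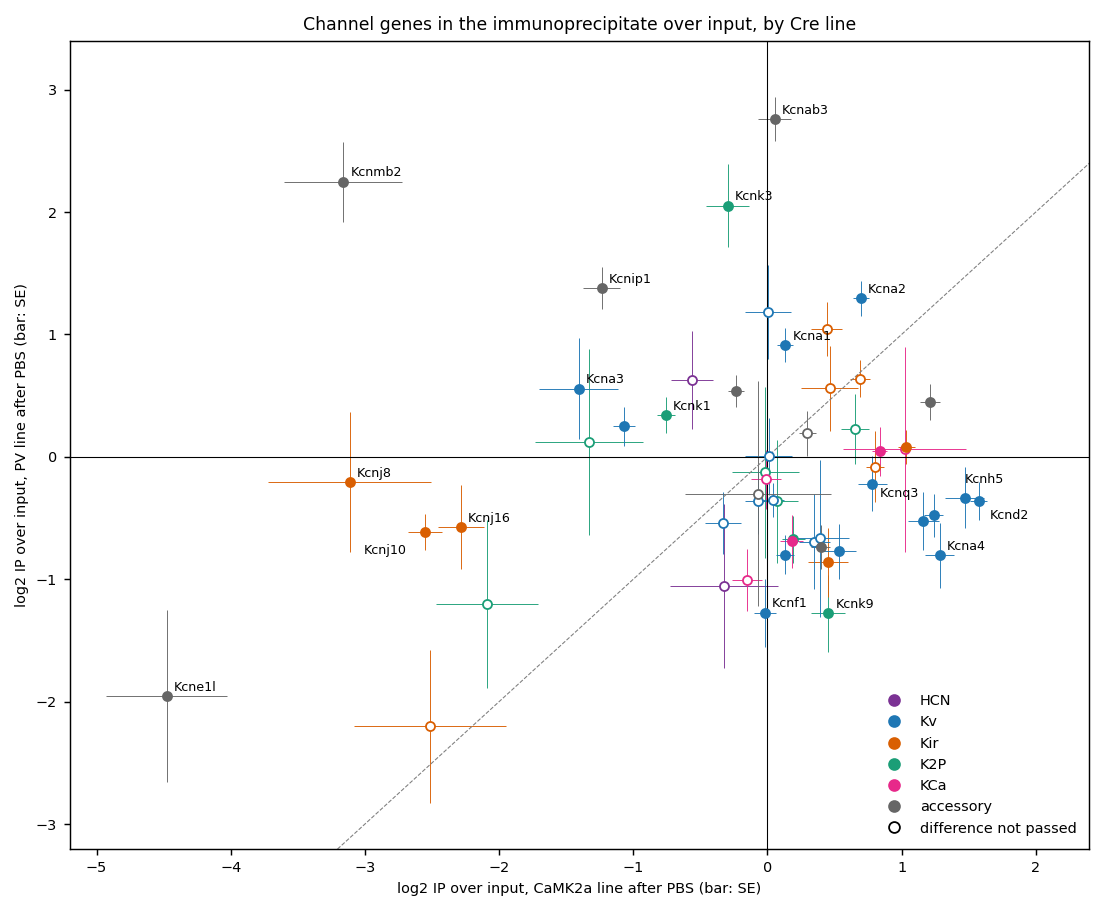
Log2 change of IP over input after PBS in the CaMK2a line (x axis) and the PV line (y axis) for 55 of the members tested in both, with SE bars, colours for the classes and a dashed line where both lines are equal; filled points passed the test of the difference between lines. Kcnab3, Kcnmb2, Kcnk3 and Kcnip1 lie above the line, and Kcnd2, Kcna4, Kcnq3 and Kcnh5 lie below it.

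Whether the kainic acid effect itself differed between fractions or lines was tested as a difference of changes. By edgeR 0 of 65 members passed for CaMK2a IP minus CaMK2a input, where 0.103% of all genes passed, and 0 passed by DESeq2. At an unadjusted p under 0.05 were 3 of these members and 8.47% of all genes. Of 63 members 0 passed for PV IP minus PV input, where 0.0253% of all genes passed, and 0 passed by DESeq2. At an unadjusted p under 0.05 were 6 of them and 4.25% of all genes. Of 64 members 0 passed for CaMK2a IP minus PV IP, where 0.0934% of all genes passed, and 0 passed by DESeq2. At an unadjusted p under 0.05 were 5 of them and 6.1% of all genes. The estimates for Kcnj2 (-0.97 ± 0.36), Kcnk1 (0.78 ± 0.29) and Kcnd2 (-0.61 ± 0.27) between the IPs had adjusted p of 0.669, 0.669 and 0.781, and Kcnd3 between the CaMK2a fractions was at 0.52 ± 0.17 (adjusted p = 0.332). Without replicate 4 of the PV line Kcnd2 passed in the IP comparison at -0.76 ± 0.16 (adjusted p = 0.0456), and Kcnj2 and Kcnk1 were at -1.03 ± 0.36 and 0.83 ± 0.29 (adjusted p = 0.235 for both). Without CaMK2a kainic acid IP replicate 1 Kcnk1 passed between the CaMK2a fractions at 0.75 ± 0.16 (adjusted p = 0.0368).

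Of 27 listed partner proteins of these channels, such as scaffolds, regulators and Kv4 auxiliaries, 18 were present. In the CaMK2a IP 4 rose and 2 fell of 18, in the CaMK2a input 3 rose and 6 fell, in the PV IP 1 rose and 0 fell, and in the PV input 2 rose and 0 fell of 17. Of all genes 35.1%, 35%, 4.85% and 11.6% passed in these comparisons. Outside the CaMK2a input the partner counts lay near those shares. Rgs7, a regulator that speeds the closing of GIRK channels, passed higher in all 4, at 0.94 ± 0.12, 1.22 ± 0.11, 1.05 ± 0.19 and 1.33 ± 0.18 in the order CaMK2a IP, CaMK2a input, PV IP and PV input. Pex5l (TRIP8b), the HCN trafficking subunit, fell by 0.61 ± 0.09 in the CaMK2a IP and by 0.49 ± 0.10 in the input, and the Kv4 auxiliaries Dpp10 and Dpp6 fell in the CaMK2a input by 0.46 and 0.24.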

How the data were processed

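RiboTag RNA was sequenced from 28 libraries in 8 groups of hippocampal CA1. Per the submitters' processing notes reads were aligned with BWA to mm10 (GRCm38) and compared with edgeR, in versions not given in the sources used here. The authors deposited 6 comparisons as tables of genes higher and lower, which were joined here (13384 to 14033 genes per table). Their columns hold whole-number read counts per gene and library, per the file headers, and the 189281 counts shared between tables differed in 0 cases. The deposited fold changes are ratios and the deposited p-values and false discovery rates come from the authors' tests, and these were used only to count calls: by the false discovery rates in the authors' deposited tables, at a threshold of 0.05, the CaMK2a IP had 15 members higher and 19 lower, with 16 and 22 in the CaMK2a input, 2 and 0 in the PV IP, and 6 and 9 in the PV input. In that order 71, 70, 72 and 71 members were listed. Of all genes 3838 of 13384, 4220 of 13758, 707 of 13895 and 1475 of 13986 passed.

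Counts were refitted with edgeR 4.0.16 (R 4.3.3, limma 3.58.1) by the quasi-likelihood test, with TMM factors, filterByExpr (minimum count 10), prior count 0.125 and Benjamini-Hochberg adjustment over all genes tested. Each fit held only the groups compared. SE is the absolute log2 fold change divided by the square root of F. The fitting code was tested on simulated data. The alternatives tried were upper-quartile factors, factors by relative log expression, a stricter and an absent filter, DESeq2 1.42.0, a replicate block, all groups of the line, PV replicates 1 to 3 only, and leaving out each library. Summaries used Python 3.11.15, pandas 2.3.3 and numpy 2.4.6, and plots matplotlib 3.10.9. Gene coordinates are those listed in the deposited tables, and all 75 members were matched to GENCODE gene models for the check of overlaps.

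Inputs and IPs are paired by lysate pool. The main fits, those of the difference between lines included, carried no pool term, so their SE and adjusted p leave this pairing out. With the pool block the Kcne1l call in the difference between lines was lost. Across treatments, the r of same-numbered PV inputs was 0.159, 0.145, 0.143 and 0.616 for numbers 1 to 4. Differently numbered libraries among 1 to 3 reached 0.201, so only number 4 was clearly paired. The block is given beside the PV input result. In the other kainic acid comparisons at least 1 pair was at or under 0.1. Among the PV IPs number 4 was at 0.362 and numbers 1 to 3 at 0.0351 to 0.0529.

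Members, lists and tests were chosen with earlier results of these data known. Genes named per comparison were, of the members that passed, up to the 8 largest rises and 8 largest falls (5 and 5 for differences of effects) and, where a result turns on them, a fixed list of widely studied members; others are named where a class is described, chosen after their values were seen. Results of some members are not reported here. PV and CaMK2a libraries were prepared from different amounts of RNA by SPIA amplification, per the labels' protocols.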

Additional observations from a re-analysis of the deposited data

Results flagged for a closer look

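A library was singled out when its gap to the nearest of the other 3 libraries of a PV group was large against the range of the group (Dixon's test), which chance does in about 1 in 20 groups. Of 136 groups of 4 tested for 34 members, 16 had such a library, and 13 of the 16 were replicate 4, the library with the lowest mitochondrial share. In the PBS input replicate 4 was low for Kcnd2 (24.7, others 33.2 to 35), Kcnj6 (12.6, others 19.2 to 19.9) and Kcnma1 (31.1, others 49.1 to 51.8). In the PBS IP replicate 4 was low for Kcnd3 (11.7, others 14.9 to 15.5), Kcnj6 (6.28, others 19.1 to 21) and Kcnma1 (29.4, others 51.4 to 52.2) and high for Kcnab2 (38.1, others 29.3 to 30.7). In the kainic acid IP it was low for Kcnj6 (12.7, others 18.9 to 19.9) and high for Kcna1 (122, others 107 to 110), Kcnu1 (1.76, others 0.364 to 0.565) and Kcnj5 (0.0126, others 0). In the kainic acid input it was high for Kcnab2 (25.5, others 16.5 to 16.9) and low for Kcnv1 (2.95, others 6.78 to 7.53). The remaining 3 were Hcn4 in kainic acid input replicate 1 (0.238, others 1.09 to 1.2), Kcnk13 in kainic acid IP replicate 2 (3.84, others 0.0643 to 0.501) and Kcnn3 in PBS IP replicate 3 (8.35, others 3.81 to 4.44).

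The IP-over-input change after PBS differed between the lines, by the test of the difference itself, in 33 of 64 members, where 27.5% of all genes passed. The 26 given here are the 5 largest in each direction and those on a fixed list of widely studied members. The change was lower in the PV line than in the CaMK2a line for Kcnh4 (-5.10), Kcna4 (-2.14), Kcnd2 (-1.99), Kcnh5 (-1.86), Kcnk9 (-1.79), Kcnq3 (-1.77), Kcnj2 (-1.37), Kcnf1 (-1.31), Kcnip3 (-1.19), Kcnv1 (-1.05), Kcnj3 (-1.01), Kcnq5 (-0.98), Kcnn2 (-0.93), Kcnk2 (-0.92), Kcnma1 (-0.84) and Kcnab1 (-0.81). It was higher in the PV line for Kcna2 (0.55), Kcnip2 (0.72), Kcna1 (0.73), Kcnk1 (1.04), Kcnj10 (1.87), Kcnip1 (2.56), Kcnab3 (2.65), Kcnj8 (2.80), Kcnmb2 (5.33) and Kcne4 (6.53). The Kcnh4 difference was lost with PV replicates 1 to 3 only (adjusted p = 0.053 by edgeR), the Kcne4 difference without any of CaMK2a PBS input replicates 2 and 3 and IP replicates 1 and 2 (largest adjusted p = 0.0786), and the Kcnj8 difference without any of 10 of the 14 libraries, all but CaMK2a PBS IP replicate 3, PV PBS input replicate 2 and PV PBS IP replicates 3 and 4 (largest adjusted p = 0.122). The Kcnma1 difference was lost without any of CaMK2a PBS input replicate 3, CaMK2a PBS IP replicates 1 and 3 and PV PBS input replicates 1 and 2 (largest adjusted p = 0.0544), the Kcnv1 difference without CaMK2a PBS input replicate 1 or IP replicate 3 (largest adjusted p = 0.0513), and the Kcna2 difference as given in the results.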

How the results depend on the processing

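Of 233 member changes called over all comparisons 169 were called in every alternative run that gave the gene an adjusted p. A run that did not test the gene was not counted as a loss. A further 64 were lost in at least 1, 36 of those only when a library was left out, and 0 reversed. In the PV IP the count of members changed by kainic acid was 2, and 6 with DESeq2, 9 with the replicate block, 7 with all groups of the line, 4 with PV replicates 1 to 3 only and 1 to 4 with a library left out. Of all genes 4.85% passed in the main fit and 6.87% with PV replicates 1 to 3 only. The shares under the other settings are not given here, so those counts say nothing about channels as a set. In the PV input the member count was 15 (11.6% of all genes passed), and 29 with the replicate block (30.7%), 24 with PV replicates 1 to 3 only (24.8%) and 9 to 18 with a library left out. For IP against input after kainic acid in the PV line the member count was 21, and 13 to 23 with a library left out. The difference CaMK2a IP minus input went from 0 to between 0 and 1 with a library left out, and CaMK2a IP minus PV IP from 0 to 1 with PV replicates 1 to 3 only. A fit to all groups of the line ended the PV input calls of Kcna1, Kcnip3, Kcnb2 and Kcnq3 (largest adjusted p = 0.127). The cause was not tested. The other counts stayed within 1.5 times: with a library left out, 24 to 32 in the CaMK2a IP and 29 to 38 in the CaMK2a input. Numbers do not pair the CaMK2a treatments (same-number r from -0.183 to 0.275), and in the PV IPs only number 4 clearly paired (r = 0.362). The block outside the PV input and PV IP kept every count within 1.5 times. Upper-quartile factors gave 13 higher and 21 lower members in the CaMK2a IP and moved the share of higher calls among all called genes from 56.4% to 42.4%; in the CaMK2a IP against input after PBS they moved the median of all genes from -0.01 to -0.13 and the members to 19 higher and 19 lower. The calls of Kcnj5, Kcnu1, Kcne4 and Kcnh4 rest on few counts. So do the Kcnk13 rise in the CaMK2a IP and the sizes of the CaMK2a IP-over-input falls of Kcne1l, Kcnj8, Kcnmb2 and Kcnk13.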
